A study of Mus musculus with 30 samples.

Results

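A set of 10 genes of the oxidative stress response, of 55401 genes counted, was followed in nuclear RNA-seq of mouse embryonic stem (ES) cells. They were Mafg, Maff, Mafk, Nfe2l1, Nfe2l2, Bach1, Keap1, Hmox1, Gclm and Srxn1, and they were chosen by the exon fold change of Mafg after indole-3-acetic acid (IAA) in CGR8 cells, where Mafg was lower. All values of single genes from that comparison are therefore descriptions without a test. The 30 libraries comprised 15 conditions with 2 biological replicates each, in 4 count tables that were analysed separately. CGR8 is the parental ES cell line and carries no degron.

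SYAT cells are CGR8 cells in which both SRCAP alleles carry YPet and an auxin-inducible degron (AID) and which express OsTir1, so that IAA triggers degradation of SRCAP, the ATPase of a complex that deposits the histone variant H2A.Z. CGR8 cells were untreated or received 500 µM IAA for 4 h. SYAT cells were kept in auxinole, an inhibitor of OsTir1, as control, or were given 500 µM IAA, with collection at 2, 4, 6 and 8 h. SYAT cells expressing mCherry fused to a mitotic degron were sorted in early G1 (EG1) or late G1 (LG1) after auxinole or 1 h of IAA. SYAT cells with doxycycline-inducible wild-type (wtSRCAP) or catalytically dead (cdSRCAP) SRCAP-mCherry, each 1 clone, received 1 µg/mL doxycycline for 24 h and auxinole or IAA for 4 h. By the paper's methods, these cells were also sorted, by mCherry signal at similar high levels, before RNA-seq. The medium of all groups held 100 µM 2-mercaptoethanol, a reducing agent. Auxinole was present in SYAT-derived controls and in no CGR8 library, so removal of auxinole and loss of SRCAP cannot be told apart in the SYAT comparisons.

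NRF2, encoded by Nfe2l2, is a basic leucine zipper factor that binds antioxidant response elements as a heterodimer with a small Maf protein, MafG, MafF or MafK. In unstressed cells KEAP1 holds NRF2 and presents it to a CUL3 ubiquitin ligase, so that much of its control acts on the protein and not on its RNA. Small Maf proteins have no activation domain, and they also pair with NRF1, the product of Nfe2l1, and with BACH1, a haem-sensitive repressor of the same elements. Hmox1 encodes haem oxygenase 1, Gclm the modifier subunit of the enzyme that starts glutathione synthesis, and Srxn1 sulfiredoxin, which reactivates peroxiredoxins.

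The promoters were searched for 2 motifs on both strands, the core of the antioxidant response element, TGACNNNGC, and the AP-1 site TGANTCA, whose letters also form the heart of a Maf recognition element. RefSeq sequence of GRCm38.p6 from 250 bases before to 50 after the start site was at hand for 9 of the 10 genes in 15 windows, and for Hmox1 none was used. TGACNNNGC lay in 6 of the 15 windows, 1 each of 6 genes, and in 12.4% of all 32851 windows. Srxn1 was the only one of these genes with TGANTCA, which was found in 7.81% of all windows. The 250 bases upstream of the Srxn1 start (chr2:152105274-152105523, plus strand) are shown because they hold TGANTCA at positions -102 and -45, in capitals.
Srxn1: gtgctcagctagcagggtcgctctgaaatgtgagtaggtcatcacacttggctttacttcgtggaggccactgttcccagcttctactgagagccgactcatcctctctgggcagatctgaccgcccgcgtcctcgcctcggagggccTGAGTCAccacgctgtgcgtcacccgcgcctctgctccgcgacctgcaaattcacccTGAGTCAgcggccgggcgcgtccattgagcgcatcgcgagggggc
The stretches around TGACNNNGC in the 3 small Maf genes, Nfe2l2 and Gclm are shown because these genes encode the NRF2 heterodimer and 1 of its known targets. Capitals mark the match, which reads from the opposite strand in Mafg, Mafk and Gclm. They lie at chr11:120633751-120633779 (minus strand, motif start -222), chr15:79346499-79346527 (plus, -112), chr5:139791513-139791541 (plus, -13), chr2:75704885-75704913 (minus, -240) and chr3:122245413-122245441 (plus, -134).
Mafg: ctctgcaggaGCACGGTCAacccggcgag
Maff: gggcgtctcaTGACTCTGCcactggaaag
Mafk: gatcccggaaGCGGTGTCAgtactgggga
Nfe2l2: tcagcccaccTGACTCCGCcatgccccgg
Gclm: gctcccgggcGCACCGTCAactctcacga
The sixth match, in Srxn1, starts 28 bases after the start site. A match to these letters is a description and was not tested for binding.

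Exon counts summed to between 12236493 and 60214521 per library. All 10 ES cell markers examined, among them Pou5f1, Sox2 and Nanog, had no fewer than 353 exon counts in any library. Of the markers of other cell types, Elf5 (trophoblast), Lum and Col3a1 (fibroblast), Sox17 and Pdgfra (primitive endoderm) were at 0 in at least 1 library. Others were counted in every library, among them Pax6 (85 to 1814 counts) and Sox1 (9 to 181) of neural cells, Col1a1 (30 to 841) of fibroblasts, and Gata4 (9 to 229) and Sox7 (8 to 175) of primitive endoderm. Srcap RNA checks no label, since the degron acts on the protein. Its mean normalized exon count was 876 ± 85.6 (SD, n = 2) in SYAT controls and 971 ± 7.27 (SD, n = 2) after 4 h of IAA. Replicate 2 of SYAT IAA 6 h and replicate 1 of wtSRCAP IAA 4 h stood apart. Their mean correlations with the other libraries of their tables were 0.969 and 0.955, against 0.981 to 0.988 and 0.966 to 0.973 for the rest. Intron columns were not alike. Of the genes with a single exon and 20 or more exon counts, 51.7% in SYAT and 45.3% in EG1 had counts in the intron column, against 0.055% in LG1 and 0.0% in CGR8 and in wtSRCAP and cdSRCAP cells. The intron columns of SYAT and EG1 thus also count exonic reads, and EG1 and LG1 introns were not compared. Between 17 and 179 genes per group were at 0 in the intron column of 1 replicate and at 50 or more counts in the other, against 0 to 15 in the exon columns. Intron counts of Gclm and Keap1 were listed at 0 in every CGR8, wtSRCAP and cdSRCAP library, and Gclm in both second replicates of LG1.

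Levels were compared between genes as exon CPM per kilobase of annotated exon. Hmox1 and Nfe2l1 were the most abundant of the 10 in all 6 control groups. In SYAT controls, Hmox1 lay at 89.8 and 101, and Nfe2l1 at 60.5 and 61.8. Mafg was the third in every control group and the most abundant small Maf, at 25.9 to 28.8 in SYAT controls, where Maff lay at 3.60 to 4.39 and Mafk at 3.50 to 4.31. The ranges of Maff and Mafk overlapped. In the same SYAT controls Nfe2l2, at 17.9 to 18.7, lay below Gclm, at 19.4 to 19.5. It lay above Bach1, at 11.7 to 14.0, Srxn1, at 7.03 to 9.05, and Keap1, at 4.46 to 5.00. This order did not hold in sorted G1 controls. In EG1 controls Srxn1 (23.8) and Bach1 (21.0 to 21.5) lay above Nfe2l2 (19.0 to 19.4), and Gclm (11.5 to 16.6) lay below it. LG1 controls had the same order. In wtSRCAP and cdSRCAP controls Nfe2l1 lay above Hmox1, and their ranges did not overlap there. In CGR8 controls those of Hmox1 (96.0 to 99.4) and Nfe2l1 (96.6 to 98.6) overlapped.

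**Figure D1:**
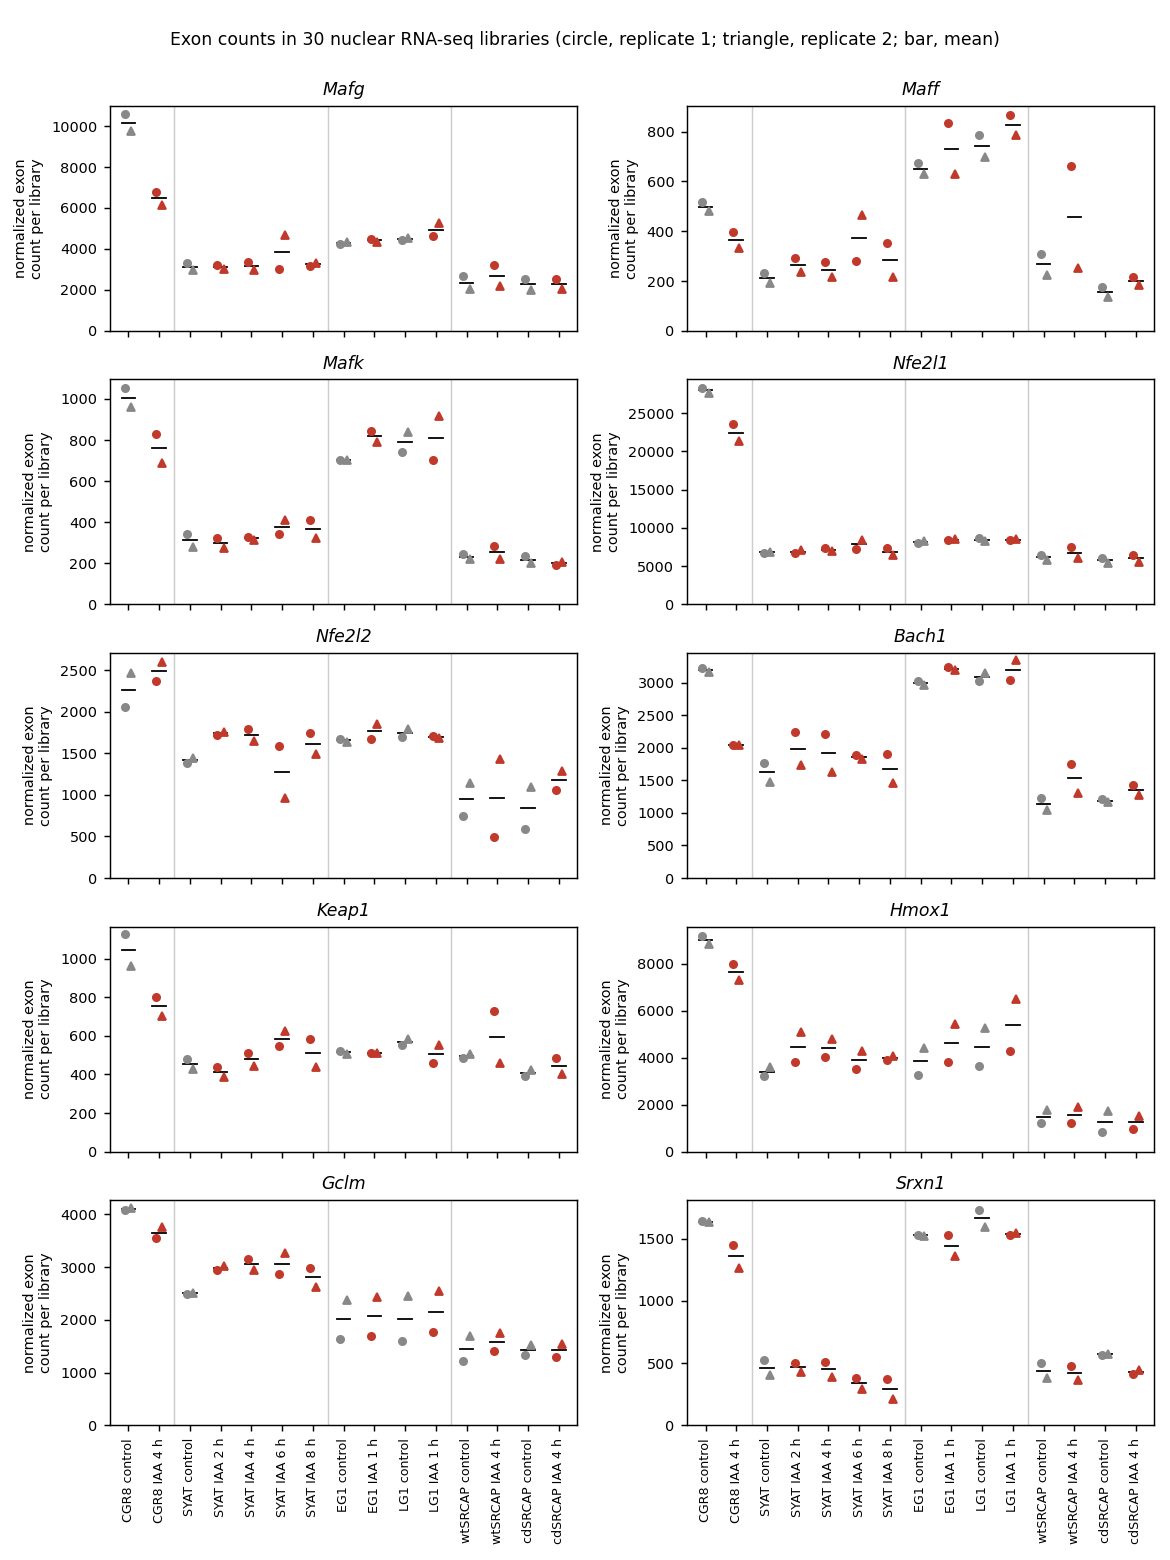
Normalized exon counts of the 10 genes in each of the 30 libraries, with groups on the horizontal axis and counts per library on the vertical axis. Grey marks controls and red IAA, and vertical lines part the 4 tables, whose levels are not comparable. In CGR8 cells, IAA values lie below control values for every gene but Nfe2l2, and in SYAT cells Hmox1 and Gclm lie above their controls at every time except that the lowest Hmox1 value at 6 h, 3531, lies below the higher control of 3602.

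The first question was what IAA does in cells without a degron. In CGR8 cells, 9 of the 10 genes had lower exon counts after 4 h of IAA, with groups that did not overlap, as was true of 20.6% of all 20250 genes tested. The median log2 fold change was -0.36, against 0.00 over all genes tested. At an adjusted p under 0.05 and an absolute log2 fold change over 0.5, edgeR called 2 of these 20250 genes. DESeq2 called 117 of 30751, edgeR without a filter 386 of 30751 and edgeR with a replicate block 500 of 20250. The number of genes called in CGR8 cells thus depended on the fit. From intronic reads, the authors reported no impact of IAA on transcription in the parental cells. Whether the lower counts of the 9 genes come from IAA was not tested. Normalized counts, scaled to the typical library of each table, are used from here on. Mafg had 10566 and 9740 exon counts in controls and 6790 and 6153 with IAA, which is -0.65 on the log2 scale. Bach1 had 3228 and 3167 in controls and 2038 and 2041 after IAA, also -0.65. The remaining 8 ranged from -0.47 to 0.14. Nfe2l2 was the exception, with 2053 and 2470 in controls and 2375 and 2602 after IAA, and these groups overlapped. The summed exon CPM of the neural markers Pax6 and Sox1 was 22.8 to 24.5 in CGR8 controls and 31.1 to 32.0 after IAA. It also lay above its controls after IAA in SYAT (6.53 to 10.3 against 11.1 to 18.7 over the 4 times), wtSRCAP (8.54 to 11.1 against 15.3 to 17.3), cdSRCAP (11.4 to 14.6 against 19.7 to 25.8), EG1 (6.87 to 7.05 against 7.34 to 8.16) and LG1 cells (5.29 to 5.48 against 5.88 to 6.51). The ES cell marker sum was also higher after IAA in CGR8 (4037 to 4829 against 4845 to 4906) and wtSRCAP cells (2871 to 3366 against 3779 to 3898). It overlapped its controls in the other cells. The primitive endoderm sum was higher in wtSRCAP cells (2.36 to 2.40 against 3.32 to 3.72). In SYAT cells it was 7.49 to 7.60 in controls, 8.61 to 9.05 at 2 h, 7.76 to 9.89 at 4 h and 8.22 to 8.42 at 8 h. At 6 h it overlapped its controls. The trophoblast sum lay below controls in EG1 and LG1 cells and above them in cdSRCAP cells. In SYAT cells it was 0.66 to 1.11 in controls, 1.13 to 1.22 at 4 h, 1.33 to 2.46 at 6 h and 1.19 to 1.96 at 8 h. At 2 h it overlapped its controls. The part of these markers in the results was not tested.

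The small Mafs Maff and Mafk were also lower in the CGR8 exon column. Maff had 516 and 482 counts in controls and 399 and 333 after IAA. Mafk had 1052 and 960 against 832 and 688. Their intron counts did not follow, with 78 and 111 against 101 and 95 for Maff and 172 and 167 against 182 and 156 for Mafk, so that those groups overlapped.

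In introns, which reflect unspliced RNA, Mafg had the largest difference of the 8 genes with intron counts. Its intron counts were 1175 and 651 in controls and 443 and 317 with IAA, or a log2 fold change of -1.26. The controls differed widely, and both lay above the IAA values. Bach1 intron counts were 611 and 721 against 387 and 445, a log2 fold change of -0.68. Srxn1 went the other way in introns, with 58 and 71 against 102 and 74, while its exon counts were 1644 and 1631 against 1452 and 1267. The annotated Mafg gene (chr11:120625117-120633600, minus strand) shares 124 bases with Sirt7 on the same strand, and reads there cannot be assigned to either. Gclm shares 14775 bases with Gm17494 on the opposite strand and 492 with the pseudogene Gm6061 on the same strand. Keap1 shares 3317 bases with Gm16754 and Mafk 169 with Tmem184a, both on the opposite strand. Nfe2l2 shares 99 bases with Gm24996 on the same strand. The effect of these overlaps on the counts was not tested.

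**Figure D2:**
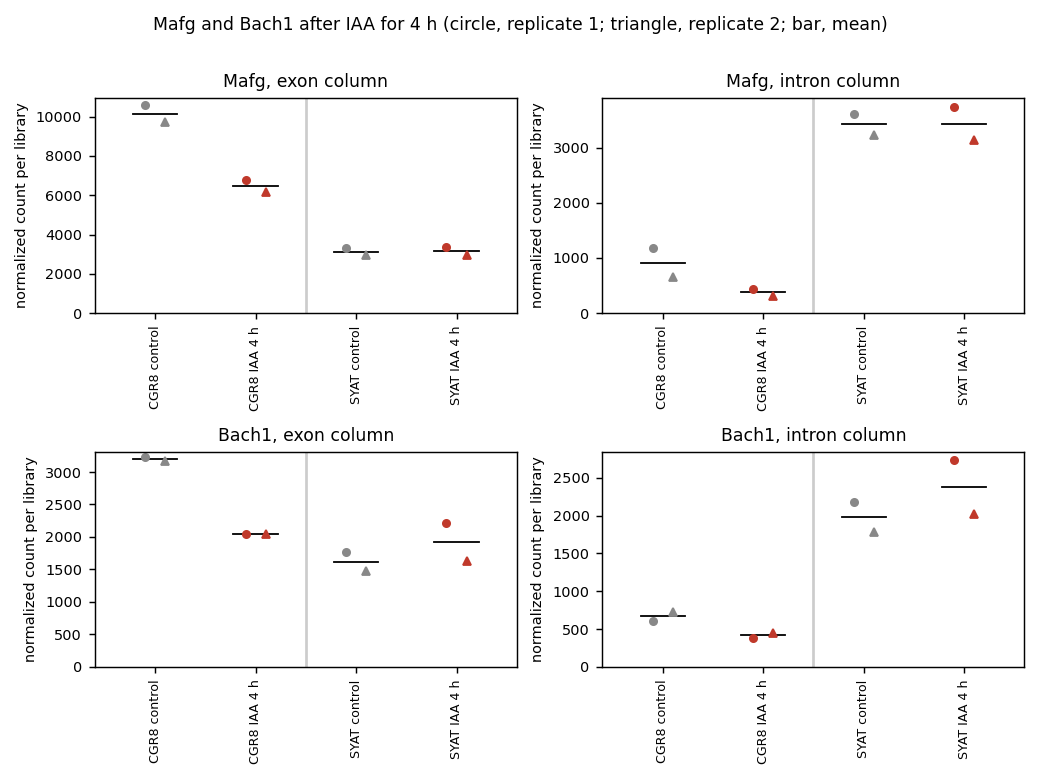
Normalized counts of Mafg and Bach1 in exon (left) and intron (right) columns, per library, for controls and 4 h of IAA in CGR8 and SYAT cells. In CGR8 cells all IAA values lie below all controls, and in SYAT cells the groups overlap in all 4 panels.

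In SYAT cells the same 4 h of IAA left Mafg exon counts at 3359 and 2959, against 3299 and 2970 in controls. Those groups overlapped. CGR8 and SYAT were counted in separate tables, so the difference between the 2 lines was not tested. Exon values of the target genes lay above controls instead. Hmox1 had 3214 and 3602 counts in controls and 4043 and 4815 after 4 h, which gave a log2 fold change of 0.38 ± 0.17 (SE; edgeR, adjusted p = 0.536). Gclm had 2493 and 2511 in controls and 3157 and 2948 after 4 h, which gave a log2 fold change of 0.29 ± 0.12 (SE; edgeR, adjusted p = 0.527). Neither passed the adjusted threshold. Hmox1, Gclm and Nfe2l1 lay below both controls in CGR8 and above both in SYAT cells, as did 3.53% of the 18368 genes tested in both. With single libraries left out, Hmox1 ranged from 0.25 to 0.49 and Gclm from 0.23 to 0.34. Srxn1 had 521 and 405 in controls and 508 and 391 at 4 h, and the groups overlapped.

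At 2 h, Hmox1 was at 3840 and 5081, a log2 fold change of 0.39 ± 0.17 (SE; edgeR, adjusted p = 1.00) that ran from 0.17 to 0.57 with single libraries left out. Gclm was at 2953 and 3012, with no overlap with controls. By 8 h the Hmox1 values, 3908 and 4063, and the Gclm values, 2985 and 2630, were still above both controls. The 4 times share the same control libraries, so these differences are not independent of each other. Intron counts of Hmox1 were 3535 and 3874 in controls and 4379 and 4931 at 4 h, but in these libraries the intron column also holds exonic reads.

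None of the 10 genes passed an adjusted p of 0.05 with an absolute log2 fold change over 0.5 in exons at any time of the SYAT series, by edgeR or by DESeq2. Of all 19205 genes tested, edgeR called 0.0% at 2 h, 0.0% at 4 h, 0.0677% at 6 h and 0.00521% at 8 h. At an unadjusted p under 0.05 there was 1 of the 10 at 2 h, against 3.92% of all genes, 2 at 4 h against 9.09%, 2 at 6 h against 16.1%, and 1 at 8 h against 13.6%. The median log2 fold change of the 10 genes was 0.14, 0.15, 0.25 and 0.17 in that order, against 0.00, 0.02, 0.01 and 0.03 over all genes. At 4 h it was 0.01 without replicate 1 of the IAA libraries.

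The 6 h time gave the widest spread among the 10 genes. Maff was at 282 and 467, against 233 and 191 in controls, a log2 fold change of 0.82 ± 0.30 (SE; edgeR, adjusted p = 0.225). The higher value came from replicate 2, which stood apart over all genes, and without that library the log2 fold change was 0.42. That library also had the highest Mafg count of the series, 4665 against 3031 in replicate 1, and the lowest Nfe2l2 count, 961 against 1583. Gclm was at 2867 and 3270, a log2 fold change of 0.29 ± 0.12 (SE; edgeR, adjusted p = 0.283). With replicate 1 of this time left out, 3 of the 10 genes were called in exons, Maff at 1.15, Mafg and Nfe2l2, and so were 3163 of all 20497 genes tested in that fit. Without replicate 2 no gene was called. In the intron column of that time, 14.5% of all genes and 1 of the 10 had p below 0.05 without adjustment. It was Gclm, at 1030 and 951 in controls and 1124 and 1960 at 6 h, a log2 fold change of 0.64 ± 0.24 (SE; edgeR, adjusted p = 0.273), or 0.98 without replicate 1 and 0.18 without replicate 2. Maff intron counts gave 0.70 ± 0.34 (SE; edgeR, adjusted p = 0.392). These intron columns also hold exonic reads and are not a separate measure.

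Srxn1, by contrast, lay below its controls at the late times. Its exon counts were 384 and 290 at 6 h and 372 and 215 at 8 h, all below both controls (521 and 405). At 8 h the log2 fold change was -0.66 ± 0.28 (SE; edgeR, adjusted p = 0.333). Leaving out single libraries moved it between -1.11 and -0.31. Its intron column gave -0.51 ± 0.33 at 6 h (SE; edgeR, adjusted p = 0.505) and -0.67 ± 0.33 at 8 h (SE; edgeR, adjusted p = 0.421). In SYAT that column also holds exonic reads, so it is not a separate measure. Among the regulators, Keap1 ranged from 385 to 624 and Bach1 from 1453 to 2235 over the IAA libraries, with controls at 480 and 428 and at 1763 and 1477. Nfe2l1 lay between 6441 and 8415, against 6728 and 6872. Nfe2l2 lay at 1387 to 1449 in controls. It was above both controls at 2 h (1725 to 1761), 4 h (1650 to 1788) and 8 h (1492 to 1743). At 6 h its replicates, 961 and 1583, lay on either side of the controls. At no time was the unadjusted p of Nfe2l2 under 0.05 by edgeR.

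**Figure D3:**
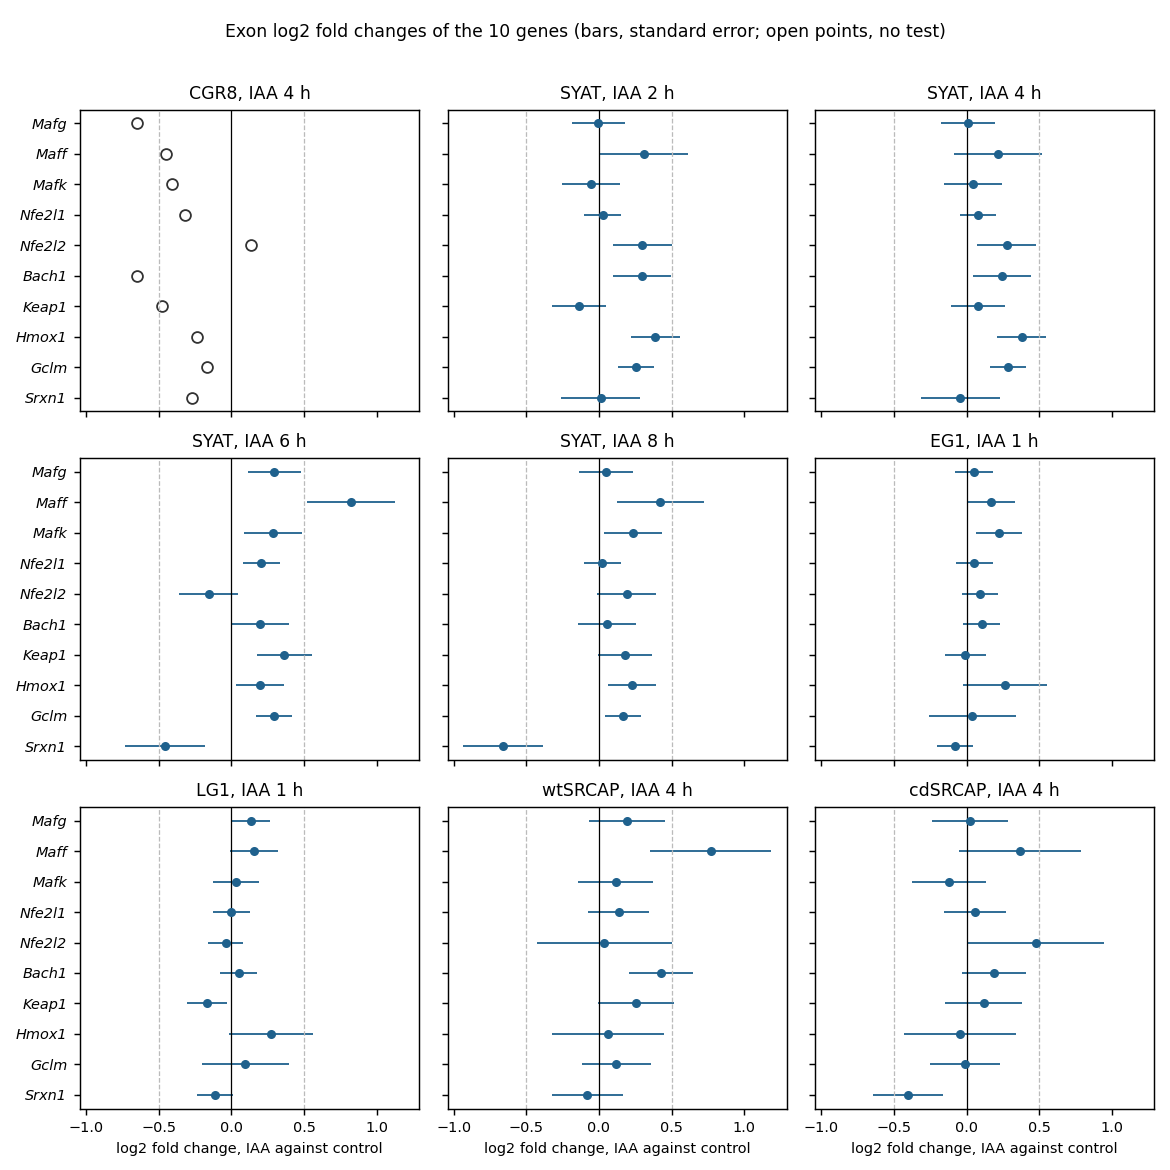
Exon log2 fold change of each of the 10 genes after IAA against its own control in 9 comparisons. Filled points have bars of 1 standard error, open points for CGR8 carry no test, and dashed lines mark -0.5 and 0.5. In CGR8 cells 9 points lie below 0, and in SYAT cells Maff at 6 h (0.82) and Srxn1 at 8 h (-0.66) lie beyond the dashed lines.

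Sorted G1 cells asked whether SRCAP loss around mitosis or within G1 acts differently. In the exon column none of the 10 genes passed an unadjusted p of 0.05 with an absolute log2 fold change over 0.25, by edgeR or DESeq2, with 1 h of IAA in EG1 (1.22% of 21020 genes called), in LG1 (1.02%), between LG1 and EG1 controls (1.44%) or for the difference between the 2 responses (0.699%). No member had an unadjusted p under 0.05 in any of these. With the replicate number as a block in the edgeR fit, Hmox1 was called in exons of both EG1 and LG1 cells. That fit called 1269 of all 21020 genes in EG1 and 883 in LG1. Log2 fold changes ranged from -0.08 to 0.26 in EG1 and from -0.17 to 0.27 in LG1. Hmox1 differed more between replicates than between conditions. It had 3288 and 4420 exon counts in EG1 controls and 3807 and 5430 after IAA, and 3671 and 5271 in LG1 controls and 4281 and 6524 after IAA. In all 4 groups replicate 2 was higher than replicate 1, and within each number the IAA library was the higher. Gclm had the same order of replicates, for example 1642 and 2379 in EG1 controls.

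All 10 genes had higher fitted exon levels in LG1 than in EG1 controls, from 0.01 to 0.21 on the log2 scale, and for 7 the groups did not overlap, against 10.7% of all genes with LG1 above EG1 in that way. None of the 10 passed the test. The median was 0.10, against 0.00 over all genes. In introns, none was called in EG1 (2.28% of 17441 genes) or LG1 (3.94%). Hmox1 intron counts were 1157 and 1654 in LG1 controls and 1250 and 2958 with IAA, or a log2 fold change of 0.58 ± 0.43 (SE; edgeR, adjusted p = 1.00). That value was 1.07 without the first IAA replicate and -0.17 without the second. Keap1 intron counts in LG1 included a library listed at 0, so no fold is given.

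Expression of wtSRCAP or cdSRCAP asked whether the catalytic activity of SRCAP matters for the response. In exons none of the 10 genes was called, by edgeR or DESeq2, after IAA in wtSRCAP cells (0.00523% of 19111 genes) or cdSRCAP cells (0.0%), between cdSRCAP and wtSRCAP controls (0.0%), between the same cells after IAA (0.00523%), or for the difference of the 2 responses (0.0%). At an unadjusted p under 0.05 there was 1 of the 10 between cdSRCAP and wtSRCAP cells after IAA, against 5.03% of all genes, and none after IAA in wtSRCAP (7.4%) or cdSRCAP cells (5.64%) or between controls (3.82%).

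Maff had the largest exon differences of the 10 genes after IAA in wtSRCAP cells and between the clones. It had 307 and 226 exon counts in wtSRCAP controls and 662 and 253 after IAA. In cdSRCAP cells it had 177 and 135 in controls and 217 and 184 after IAA. After IAA it was lower in cdSRCAP than in wtSRCAP cells, with a log2 difference of -1.18 ± 0.42 (SE; edgeR, adjusted p = 0.951), and in controls the difference was -0.78 ± 0.42 (SE; edgeR, adjusted p = 1.00). The groups did not overlap in either case. With the replicate number as a block, the difference after IAA was -1.07 and passed (edgeR, adjusted p = 0.0279). In that fit 269 of all 19111 genes were called. The IAA response in wtSRCAP cells, 0.77 ± 0.42 (SE; edgeR, adjusted p = 0.733), rested on replicate 1, the library that stood apart. Without it the value was -0.05, and the difference between cdSRCAP and wtSRCAP cells after IAA was -0.38. Each construct was 1 clone, so the clone and the construct cannot be told apart.

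Nfe2l2 differed widely between replicates in these cells. Its exon counts were 747 and 1144 in wtSRCAP controls, 497 and 1437 after IAA, 591 and 1095 in cdSRCAP controls and 1062 and 1285 after IAA. Replicate 1 was lower in all 4 groups. Srxn1 had 568 and 571 counts in cdSRCAP controls and 416 and 444 after IAA, with no overlap, and 500 and 380 against 473 and 361 in wtSRCAP cells, with overlap. Mafg lay between 2003 and 3220 in the 8 libraries.

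In introns of these cells, 8 of the 10 genes could be tested and none was called after IAA in wtSRCAP (0.299% of 12702 genes) or cdSRCAP cells (0.236%), between controls (0.102%), after IAA (0.0157%) or for the difference of responses (0.0%). Bach1 had 382 and 275 intron counts in wtSRCAP controls and 574 and 484 with IAA, or a log2 fold change of 0.69 ± 0.19 (SE; edgeR, adjusted p = 0.203). It was the only one of the 8 with an unadjusted p under 0.05 in wtSRCAP cells, against 12.4% of all genes, and blocking on replicate number gave a call (edgeR, adjusted p = 0.046). The blocked fit called 292 of all 12702 genes. In cdSRCAP cells Bach1 had 391 and 382 against 424 and 395, and the difference of the 2 responses was -0.60 ± 0.27 (SE; edgeR, adjusted p = 1.00).

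All 8 genes had lower fitted intron levels in cdSRCAP than in wtSRCAP cells after IAA, with a median of -0.49 against -0.01 over all genes. Mafk stood at -1.03 ± 0.48 (SE; edgeR, adjusted p = 0.501), Maff at -0.90 ± 0.42 (SE; edgeR, adjusted p = 0.507), Mafg at -0.60 ± 0.30 (SE; edgeR, adjusted p = 0.531) and Srxn1 at -0.56 ± 0.51 (SE; edgeR, adjusted p = 0.742). Without replicate 1 of wtSRCAP IAA 4 h the median was -0.15. Mafk counts show the spread, with 134 and 47 in wtSRCAP and 42 and 44 in cdSRCAP cells after IAA.
Intron differences between controls were -0.53 ± 0.48 for Mafk (SE; edgeR, adjusted p = 0.924) and -0.70 ± 0.50 for Srxn1 (SE; edgeR, adjusted p = 0.878). After IAA in wtSRCAP cells Maff gave 0.76 ± 0.43 (SE; edgeR, adjusted p = 0.495) and Mafk 0.62 ± 0.48 (SE; edgeR, adjusted p = 0.636). The difference of the responses was -1.21 ± 0.60 for Maff (SE; edgeR, adjusted p = 1.00) and -0.50 ± 0.68 for Mafk (SE; edgeR, adjusted p = 1.00).
In the SYAT intron columns none of the 10 was called at 2 h (0.0% of 14719 genes), 4 h (0.0%), 6 h (0.0136%) or 8 h (0.00679%).

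A further 50 genes of the pathway, with other Maf and CNC factors, factors acting on NRF2 or NRF1 protein, and genes of glutathione, thioredoxin, NADPH, quinone, haem and iron metabolism, were examined for context. Of the 48 tested in SYAT exons, none was called at any time, nor was any of them in exons of the sorted G1, wtSRCAP or cdSRCAP cells. At an unadjusted p under 0.05, none was found at 2 h, 2 higher and 2 lower at 4 h, 10 higher and 2 lower at 6 h, and 3 higher and 2 lower at 8 h. The 6 h group holds the library that stood apart, and 16.1% of all genes had so low a p there. At 6 h the 10 included 4 of the 14 glutathione and thioredoxin genes and 5 of the 11 quinone, haem, iron and export genes. Their median log2 fold changes were 0.23 and 0.42. In exons of wtSRCAP and cdSRCAP cells 47 were tested. At an unadjusted p under 0.05 (edgeR), 4 were higher and none lower in cdSRCAP than in wtSRCAP controls, against 3.82% of all genes. They included Nfe2, Nfe2l3 and Ephx1, with log2 fold changes of 1.39, 0.90 and 0.83. After IAA, 1 was higher and 1 lower in wtSRCAP cells, and 1 was lower in cdSRCAP cells. The clone and the construct cannot be told apart.

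Cbr3, a carbonyl reductase and NRF2 target, had 1115 and 1005 in controls and 1622 and 2264 at 6 h, a log2 fold change of 0.87 ± 0.20 (SE; edgeR, adjusted p = 0.0908). Its intron column gave larger fold changes, with 401 and 325 in controls, 1076 and 810 at 4 h and 1109 and 1508 at 6 h, a log2 fold change of 1.85 ± 0.29 at 6 h (SE; edgeR, adjusted p = 0.107). SYAT intron columns also count exonic reads. Blvrb, biliverdin reductase B, was at 240 and 530 at 6 h against 215 and 215, so only the library that stood apart was high. Ftl1 and Gstp1 have near-identical copies, and their values of 0.81 and 0.70 at 6 h are uncertain.

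Ngly1, the glycanase that processes NRF1, and Btrc, a subunit of a ubiquitin ligase for NRF2, lay below controls. Ngly1 had 126 and 107 in controls and 59.5 and 49.7 at 4 h, a log2 fold change of -1.10 ± 0.27 (SE; edgeR, adjusted p = 0.216). Btrc had 442 and 441 in controls, 291 and 328 at 4 h and 280 and 310 at 8 h, where the log2 fold change was -0.58 ± 0.16 (SE; edgeR, adjusted p = 0.159). Btrc also had 262 and 302 against 172 and 188 in wtSRCAP cells and 262 and 281 against 178 and 194 in cdSRCAP cells. In CGR8 cells Btrc exon counts were 1231 and 1170 in controls and 1065 and 1006 after IAA.

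**Figure D4:**
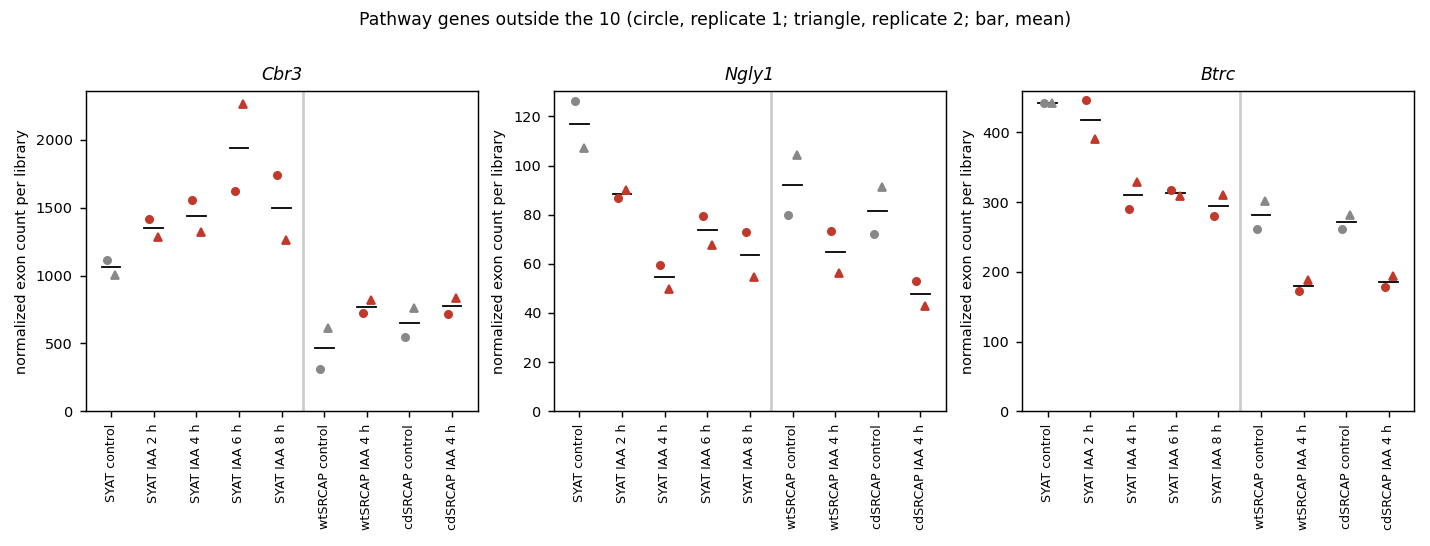
Normalized exon counts per library of Cbr3, Ngly1 and Btrc in SYAT cells over the IAA times and in wtSRCAP and cdSRCAP cells. From 4 h on, Cbr3 lies above its SYAT controls and Ngly1 and Btrc lie below theirs, with none past the adjusted threshold.

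Over the 30 libraries, after each table was centred on its own mean, exon levels of Mafg ran closest to those of Creld2 (Pearson r = 0.926), Scrib (0.896), Fbxw9 (0.888), Fgfr1 (0.881) and Zfp777 (0.879) among 13139 genes. Hmox1 ran closest to Xrcc6 (0.877), Bcat1 (0.871), Slc3a2 (0.871), Drosha (0.861) and Ssrp1 (0.858). Within the 10 genes, Mafg ran with Nfe2l1 (0.873), Mafk (0.743), Maff (0.720) and Keap1 (0.709) and against Nfe2l2 (-0.68), while Hmox1 ran with Gclm (0.781) and not with Mafg (-0.08). These correlations share libraries, depth and replicate differences and describe these 30 points only. The points include the CGR8 libraries, whose Mafg values chose the genes, so correlations with Mafg are not independent of that choice. They also include the libraries that stood apart. In CGR8 cells Hmox1 (9174 and 8856 in controls against 8012 and 7323) and Gclm (4083 and 4123 against 3553 and 3756) were both lower with IAA.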

How the data were processed

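Nuclear RNA-seq counts of 30 libraries were used. According to the methods and labels, the authors used STAR (mm10) for alignment and featureCounts for counts on GENCODE vM25 exons and on introns. The authors deposited whole-number counts without normalization, with an exon and an intron column per library. Further deposited tables hold the authors' fold changes and p-values and were not used. Symbols and positions came from GENCODE vM21 (GRCm38), in which 55141 of 55401 identifiers matched.

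Each table and column was fitted as a whole in R 4.3.3 with edgeR 4.0.16 (TMM, filterByExpr with minimum count 10, quasi-likelihood test, Benjamini-Hochberg adjustment), and DESeq2 1.42.0 was an alternative. Genes were called at an adjusted p under 0.05 and an absolute log2 fold change over 0.5, or in sorted G1 cells at an unadjusted p under 0.05 and 0.25. Normalized counts are counts scaled to the geometric mean of the effective library sizes of a table. The test was checked on simulated data. Members and lists were chosen with earlier results of these data known. All 10 members were named. Statistics were printed where p was under 0.05 or the log2 fold change was at least 0.5 in size, and at most 5 pathway genes were named per comparison by the same limits, and 1 gene of the pathway list is not reported here. Alternatives were other scalings, no filter, single libraries left out, a replicate block, only the groups compared, and introns minus exons.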

Additional observations from a re-analysis of the deposited data

Results flagged for a closer look

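A set of 3 genes lay on opposite sides of their controls in CGR8 and SYAT cells after 4 h of IAA, lower in both CGR8 libraries and higher in both SYAT libraries than either control. The same was true of 648 of 18368 genes tested in both lines (3.53%). Exon log2 fold changes in CGR8 and SYAT were -0.23 and 0.38 for Hmox1, -0.17 and 0.29 for Gclm, and -0.32 and 0.079 for Nfe2l1. None passed the adjusted threshold in SYAT cells (edgeR, adjusted p = 0.536, 0.527 and 0.919). The lines were counted in separate tables and their controls differ, without and with auxinole, so the difference between them was not tested. The CGR8 comparison is also the one that led to the choice of these genes.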

How the results depend on the processing

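Each group had 2 replicates, and the median biological coefficient of variation was 0.193 to 0.291 in exons. No member was called under DESeq2, RLE size factors, no filter, only the groups compared, or introns minus exons. With single libraries left out, members called ranged from 0 to 3 in exons and from 0 to 2 in introns for SYAT 6 h, and from 0 to 2 in introns for LG1, and stayed at 0 in all other comparisons.

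With a replicate block, 1 member was called in exons in EG1 and 1 in LG1 (Hmox1 in each), 1 between cdSRCAP and wtSRCAP cells after IAA (Maff, -1.07, adjusted p = 0.0279 by edgeR), and in introns 1 in LG1 (Hmox1, 0.50) and 1 after IAA in wtSRCAP cells (Bach1, 0.69, adjusted p = 0.046 by edgeR). Over all genes, the blocked exon fits called 1269 of 21020 in EG1, 883 of 21020 in LG1 and 269 of 19111 between cdSRCAP and wtSRCAP cells after IAA. In introns they called 1573 of 17441 in LG1 and 292 of 12702 after IAA in wtSRCAP cells. The block changed no other count of members. The labels state no shared batch, so the main fits did not treat the numbers as pairs. Same-numbered libraries deviated together in exons by r = 0.372 to 0.586 in sorted G1 cells and 0.259 to 0.376 in wtSRCAP and cdSRCAP cells. The values were 0.0736 in CGR8 and -0.04 to 0.589 in SYAT. All were positive in sorted G1, wtSRCAP and cdSRCAP cells, where the calls named above depended on the block.

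Signs turned for Maff introns at SYAT 6 h with introns minus exons (-0.0066). They also turned when single libraries were left out for Hmox1 introns in LG1 (range -0.17 to 1.07, low without the second IAA replicate) and, without wtSRCAP IAA 4 h replicate 1, for Maff exons (-0.050 to 1.33) and Mafk introns (-0.31 to 1.22) in wtSRCAP cells and Mafk introns in the difference of responses (-1.10 to 0.46). The cause was not tested. Over all genes, exon calls depended strongly on the fit. In SYAT at 2, 4, 6 and 8 h edgeR called 0, 0, 13 and 1, DESeq2 8, 123, 567 and 378, edgeR without a filter 8, 88, 885 and 448, and with a replicate block 0, 76, 823 and 634.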
